A study of Homo sapiens with 12 samples.

Results

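Minor strand miRNAs, written with a star (miR-191*) here and with # in the deposited tables, were examined in 2 human embryonal carcinoma cell (ECC) lines after knock-down of SOX2. The members were all miRNA assays named with #, apart from those of miR-9, miR-10, miR-26, miR-31, miR-96, miR-124, miR-135, miR-141, miR-181, miR-182, miR-183, miR-200, miR-302, miR-367, miR-429 and miR-512 to miR-527. The rule used names only and took 62 of the 501 assays in the table of normalised values, and left out 20 of the 82 minor strand assays. For 52 members an assay of the major strand of the same precursor was present, and 10 had none. Because several precursors can give the same major strand, these 52 members shared 50 major strand assays.

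The 12 samples fell into 4 groups of 3 biological replicates. 2102Ep cells, a nullipotent line, and NTera-2 cells, a pluripotent line, had each been transfected for 6 h with an siRNA against SOX2 (siSOX2) or with a non-targeting negative control siRNA (NC). Final siRNA concentrations were 15 nM (2102Ep) and 30 nM (NTera-2), each with another lipid reagent, and RNA was taken 72 h later, so that line, dose and reagent cannot be told apart. MiRNAs were pre-amplified and measured by qRT-PCR on a pair of TaqMan array cards, A with 290 and B with 211 of the assays. The level of SOX2 itself is not on these cards. By the study's own report, more SOX2 mRNA remained after siSOX2 in NTera-2 than in 2102Ep cells, while the protein was undetected in both. All 8 pluripotent markers of the miR-302, miR-367 and miR-371 to miR-373 group were measured in every group. Their median raw Ct lay between 17.1 and 17.9 (a low Ct is a high level). The weakest in NTera-2 cells stood at 25.2 in NC and 26.1 in siSOX2. Markers of other lineages were measured too. Of 8 mesenchymal and muscle markers, 5 were measured in 2102Ep cells, with medians of 23.1 in NC and 22.7 in siSOX2. The strongest of these, at 11.2 and 10.6, lay below every pluripotent marker of that line (16.2 or more). In NTera-2 cells 3 of the 8 mesenchymal and muscle markers were measured, with medians of 25.2 in NC and 23.7 in siSOX2. All 4 neural markers were measured in every group, with medians between 23.8 and 25.1. In every group 3 of 4 endoderm markers (medians between 22.4 and 22.9) and 4 of 6 blood markers (26.7 to 27.6) were also measured.

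A miRNA precursor is a hairpin that is cut to a short duplex. As a rule the major (guide) strand of the duplex is loaded into an Argonaute protein and the minor (passenger) strand is discarded, but some minor strands are loaded as well and repress their own targets. A loaded strand finds its targets mainly through its seed, bases 2 to 8 counted from the 5′ end. Both strands of a hairpin come from the same transcript, although some major strands can also come from a further precursor.

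Both strands of the precursors on which the results turn are shown for comparison, with the seed in capitals, 5′ to 3′ as given by RefSeq for GRCh38.p14. The minor strands called after SOX2 knock-down, alone or (miR-744*) only against the major strand, come first, each followed by the major strand where RefSeq held it. MiR-1226 is shown although it had no assay.
miR-545*: uCAGUAAAuguuuauuagauga
miR-545: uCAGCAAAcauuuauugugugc
miR-374a*: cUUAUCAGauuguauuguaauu
miR-191*: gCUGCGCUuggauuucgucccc
miR-191: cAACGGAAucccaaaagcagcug
miR-218-2*: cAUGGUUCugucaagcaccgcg
miR-218: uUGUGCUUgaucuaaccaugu
miR-222*: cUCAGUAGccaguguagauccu
miR-222: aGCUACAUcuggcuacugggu
miR-1226*: gUGAGGGCaugcaggccuggaugggg
miR-1226: uCACCAGCccuguguucccuag
miR-744*: cUGUUGCCacuaaccucaaccu
miR-744: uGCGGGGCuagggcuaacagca

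The precursors of the miR-17/miR-92 family whose strands parted most between the lines follow.
miR-106b*: cCGCACUGuggguacuugcugc
miR-106b: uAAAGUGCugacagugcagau
miR-17*: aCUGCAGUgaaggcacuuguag
miR-17: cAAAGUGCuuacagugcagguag
miR-20b*: aCUGUAGUaugggcacuuccag
miR-20b: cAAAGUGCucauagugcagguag
miR-363*: cGGGUGGAucacgaugcaauuu
miR-363: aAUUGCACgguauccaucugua

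The major strands miR-106b, miR-17 and miR-20b carried the same seed, whereas their minor strands carried 3 different seeds. Of the 62 members, 58 were found among the RefSeq mature sequences, and miR-106a*, miR-21*, miR-30d* and miR-505* were not printed. The 58 minor strands held 55 distinct seeds, and no minor strand had the seed of any of the major strands found for these precursors. Only miR-19a* with miR-19b-1*, miR-23a* with miR-23b*, and miR-7-2* with rno-miR-7* (the assay of the rat name, matched here to the minor strand of human miR-7-1) shared a seed. A U at the first base, which Argonaute proteins are known to favour, stood in 6 of 58 minor strands and in 31 of the 56 different major strands found. Of the minor strands, 34 lay on the 3′ arm and 24 on the 5′ arm of the hairpin.

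All 62 members lay on card B. Values were obtained in both lines for 42 members, in 2102Ep cells only for 5 and in NTera-2 cells only for 15. The 5 members with values only in 2102Ep cells were miR-136*, miR-154*, miR-218-2*, miR-23a* and miR-411*. The 15 with values only in NTera-2 cells included miR-25*, miR-19a*, miR-92a-2*, miR-16-1*, miR-193b* and miR-1226*. Of these 20 members, 14 had a major strand assay, and in all 14 cases the major strand was measured in all 12 samples. The minor strand assays thus had values in 1 line where the major strand of the same precursor had values in both. All members with values in a line had them in at least 2 of 3 samples of each group and entered the tests, 47 in 2102Ep and 57 in NTera-2 cells. Single values were missing for miR-374a* and miR-363* in siSOX2 and for miR-376a* in NC, all in 2102Ep cells.

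The members were mostly weak. Their median raw Ct was 26.1 in 2102Ep NC and 25.6 in NTera-2 NC, against 23.01 and 22.02 for their major strands. The median SD of the ΔCt (the Ct minus a reference) between replicates was 0.478 for members and 0.312 for all assays in 2102Ep NC. In NTera-2 NC these were 0.437 and 0.436. In 2102Ep cells the lowest raw Ct were those of miR-149*, which lay between 18.4 and 19.3 in the 6 samples, miR-335* and miR-126*. At the other end stood miR-17*, miR-93* and miR-218-2*, with miR-17* between 30.5 and 32.9. In NTera-2 cells miR-25* lay between 18.97 and 20.01 and miR-106b* between 19.1 and 20.3, while miR-192*, miR-92a-2* and miR-374b* were the weakest. The assay of miR-23b* stood apart in NTera-2 cells. Its raw Ct was 6.87, 7.48 and 6.91 in NC and 9.14, 13.9 and 7.90 in siSOX2, far lower than any other member, and it had no value in 2102Ep cells.

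To ask how far apart the strands of a precursor were, the raw Ct of the major strand was subtracted from that of the minor strand within each sample. Ct values of different assays also depend on the efficiency of each assay, and for 48 of the 52 pairs the strands lay on different cards, so these distances are descriptions. In NTera-2 NC the median distance over 48 pairs was 3.66 cycles in favour of the major strand, and in 2102Ep NC it was 3.07 cycles over 41 pairs. The distances spanned -5.86 to 11.3 cycles in NTera-2 NC and -8.28 to 14.6 cycles in 2102Ep NC. The widest in both lines was that of miR-17*, whose major strand belongs to a cluster known to act as an oncogene: 14.6 ± 0.67 cycles (SD, n = 3) in 2102Ep NC and 11.3 ± 0.42 in NTera-2 NC. Next in 2102Ep NC stood miR-19b-1* at 10.9 ± 0.39 and miR-191* at 9.58 ± 0.79 cycles. In NTera-2 NC miR-92a-2* and miR-106a* followed miR-17* at 10.8 ± 0.74 and 10.3 ± 0.51 cycles.

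For a minority of precursors the assay named minor gave the lower Ct. This held for 10 of 41 pairs in 2102Ep NC and 9 of 48 in NTera-2 NC by their means, and in every one of 3 samples for 8 and 7 pairs. Among the 37 pairs measured in both lines, 5 had the minor strand at the lower mean Ct in both. The strongest was miR-625*, at a raw Ct of 21.3, 21.2 and 20.4 in 2102Ep NC where miR-625 stood at 28.9, 29.3 and 29.6. In NTera-2 NC the distance of this pair was -5.86 ± 0.40 cycles. MiR-335*, miR-551b* and rno-miR-7* also lay below their major strands in both lines, by 3.52, 4.61 and 2.18 cycles in 2102Ep NC and by 4.21, 2.33 and 3.68 cycles in NTera-2 NC. The strands of miR-7 are on the same card. Its other minor strand, miR-7-2*, which shares the seed of rno-miR-7*, lay on the opposite side of the same major strand, at 1.68 ± 0.65 and 3.74 ± 1.91 cycles above it. Across the 37 pairs the distances in the 2 lines were correlated (Pearson's r = 0.867 across pairs, which share samples, cards and assay efficiencies).

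**Figure D1:**
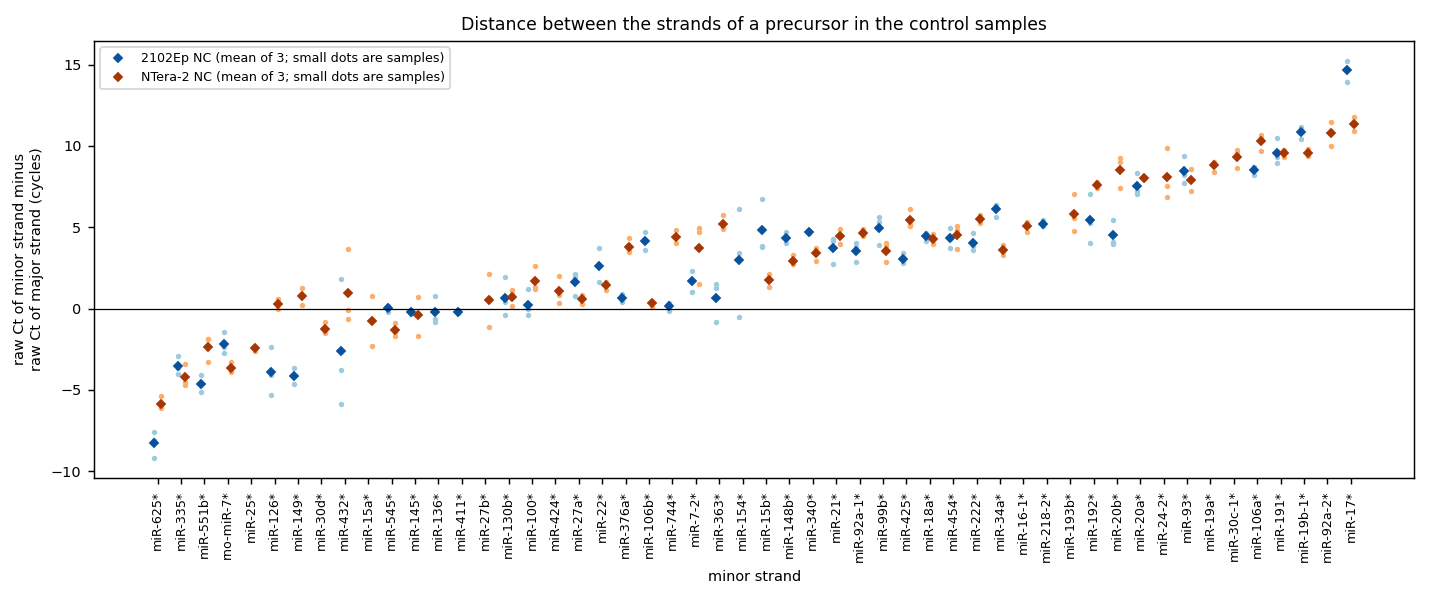
Raw Ct of each minor strand minus that of its major strand in cycles, in 2102Ep NC (blue) and NTera-2 NC (orange), ordered by the mean of both. Diamonds are means of 3 samples and small dots single samples. Most pairs lie above 0, and miR-625* lies lowest and miR-17* highest in both lines.

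In 2102Ep cells 4 of the 47 members tested were called after SOX2 knock-down in the fit without pairing. MiR-374a*, miR-191* and miR-545* rose and miR-218-2* fell. Of all assays tested, 14.1% were called at an adjusted p under 0.05 (4.63% rose and 9.49% fell), so the 4 members, 8.51%, were no larger a share than the assays as a whole. The median change of the 47 members was -0.04 on the log2 scale, that of all assays -0.00, and 23 members lay above 0. In 11 members the NC and siSOX2 samples did not overlap, a share of 23.4% against 31.9% of all assays.

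MiR-545* and miR-374a* come from neighbouring hairpins. They lie at chrX:74287164-74287185 and chrX:74287295-74287316 on the minus strand (GRCh38.p14), their starts 131 bases apart, within FTX, a long non-coding RNA of the X-inactivation centre. The ΔCt of miR-545* was 2.11, 2.10 and 2.24 in NC and 0.80, 1.21 and 1.44 in siSOX2 of 2102Ep cells. All 3 siSOX2 samples lay below (at a higher level than) all 3 NC samples. The rise was 1.00 ± 0.24 on the log2 scale (SE), or 2.00-fold, with an adjusted p of 0.0185. The ΔCt of miR-374a* was 2.20, 0.75 and 2.11 in NC and 0.12 and -0.25 in the siSOX2 samples in which it was measured. These groups did not overlap either, and the rise was 1.76 ± 0.43 or 3.38-fold, with an adjusted p of 0.0254 from a fit that dropped the missing sample. Set at Ct 40, that sample turned the change to -3.46. The call of miR-545* was lost without NC replicate 1 (adjusted p = 0.0540), NC replicate 3 (0.0721) or siSOX2 replicate 1 (0.0711), and that of miR-374a* without NC replicate 1 (0.0852) or 3 (0.0862). With 1 of the 2 siSOX2 values left out miR-374a* was no longer testable. Taking the replicate number as a block, which pairs the samples, also ended the call of miR-374a*.

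The major strand miR-545 stood at 8.42, 8.50 and 8.44 in NC and 7.94, 8.12 and 7.59 in siSOX2, also without overlap, and differed by 0.57 ± 0.23 (adjusted p = 0.154). The assay named miR-374, which the study annotates as the major strand of miR-374a but whose name did not pair it with miR-374a*, differed by 0.43 ± 0.19 (adjusted p = 0.188). In 2102Ep cells the minor strands of this locus were thus past the threshold and the major strands were not. This does not show that the strands responded differently. The shift of miR-545* against miR-545 within a sample was 0.43 ± 0.36 and did not pass the test (adjusted p = 0.566). No shift was tested for miR-374a*.

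MiR-191* showed a change that its major strand did not share. Both strands come from a hairpin in DALRD3 on chromosome 3 that lies next to miR-425. The ΔCt of miR-191* was 5.49, 4.08 and 4.31 in NC and 3.39, 3.43 and 2.85 in siSOX2. All siSOX2 samples lay below all NC samples, of which replicate 1 stood highest. The rise was 1.41 ± 0.39, or 2.65-fold (adjusted p = 0.0396). MiR-191 stood at 1.47, 1.32 and 1.29 in NC and 1.73, 1.64 and 1.25 in siSOX2, so that its groups overlapped, and its change was -0.18 ± 0.23 (adjusted p = 0.707). The level of the minor over the major strand within a sample therefore rose, by 1.59 ± 0.33 on the log2 scale (adjusted p = 0.0169). The call of miR-191* itself was lost without any 1 of NC replicate 1 or 3 or of the 3 siSOX2 samples of 2102Ep cells (adjusted p from 0.0645 to 0.127), and without NC replicate 1 the rise was 0.97. It was also lost without NC replicate 3 or any siSOX2 sample of NTera-2 cells, which share the estimate of the spread (0.0544 to 0.0585). The minor-to-major shift was lost without siSOX2 replicate 3 (0.0604), with the 6 samples of the line alone (0.146) and with the unequal-variance test of each pair alone (0.496). A replicate block also ended the shift of miR-191*. Its neighbour miR-425* had a change of -0.54 that did not pass the test.

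MiR-218-2* was measured in 2102Ep cells only. It lies within SLIT3 on chromosome 5, at chr5:168768168-168768189 on the minus strand (GRCh38.p14), and its major strand miR-218 can also come from a second precursor on chromosome 4. Its ΔCt was 3.64, 3.37 and 3.96 in NC and 6.29, 4.74 and 6.26 in siSOX2. The groups did not overlap, and siSOX2 replicate 2 lay nearest to NC. The fall was -2.11 ± 0.48, or 4.32-fold (adjusted p = 0.0341), and the raw Ct of 28.0 to 31.3 places it among the weakest members. MiR-218 fell with it, by 0.73 ± 0.16 (adjusted p = 0.0115), from 4.66, 4.86 and 4.82 to 5.52, 5.50 and 5.52. This was the only precursor of the 41 pairs whose strands were both called in 2102Ep cells. The excess of the fall of miR-218-2* over that of miR-218, -1.38 ± 0.50, did not pass the test over pairs (adjusted p = 0.201). In NTera-2 cells miR-218 rose by 0.77 ± 0.16 (adjusted p = 0.0228), while miR-218-2* had no value. With RNU44 and RNU48 for normalisation the members of 2102Ep cells moved up by 0.56, 38 of 47 lay above 0, and the fall of miR-218-2* was -1.55 (adjusted p = 0.0900). Its call was also lost when any 1 of 5 samples of 2102Ep cells other than siSOX2 replicate 2 was left out (adjusted p from 0.0862 to 0.102).

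**Figure D2:**
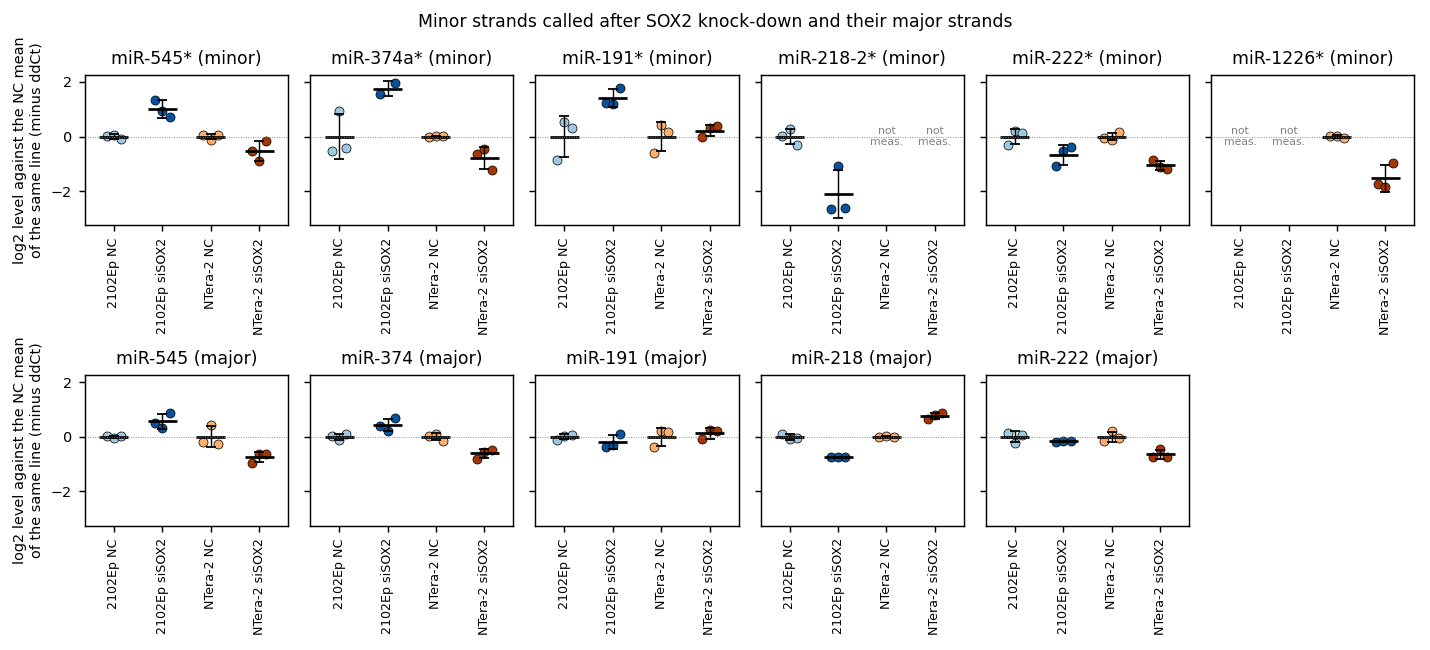
Log2 level against the NC mean of the same line (minus ΔΔCt) of the 6 minor strands called after SOX2 knock-down (top) and of their major strands (bottom); miR-374 was paired with miR-374a* after its values were seen, and miR-1226* has no major strand assay. Dots are samples, lines means and bars SD (n = 3, or 2 for miR-374a* in 2102Ep siSOX2). By the deposited ΔCt, miR-545* and miR-374a* lie above 0 in 2102Ep siSOX2 and below 0 in NTera-2 siSOX2.

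Against the major strand, 2 of the 41 pairs of members were called in 2102Ep cells in the fit without pairing, where 7.02% of all 57 minor-major pairs tested were called. Besides miR-191*, the level of miR-744* over miR-744 fell by 1.16 ± 0.28 (adjusted p = 0.0267). The ΔCt of miR-744* was -0.49, -0.55 and -0.61 in NC and -0.49, 0.38 and 0.21 in siSOX2. That of miR-744 was 5.69, 5.65 and 5.53 in NC and 4.96, 5.30 and 4.89 in siSOX2. The strands thus moved apart, the minor strand by -0.58 and the major strand by 0.57, and neither was called alone (adjusted p = 0.236 and 0.0819). The shift of miR-744* was lost without any 1 of 5 samples of 2102Ep cells, siSOX2 replicate 1 being the exception (0.0534 to 0.0843), and without siSOX2 replicate 1 or 2 of NTera-2 cells (0.0528 and 0.0517). It was lost with a replicate block as well. By the size of the change and non-overlapping groups at an unadjusted p of 0.05 or less, miR-17* (1.23 ± 0.39, adjusted p = 0.0721), miR-18a* (-0.79 ± 0.29, 0.111) and miR-222* (-0.67 ± 0.24, 0.0970) followed. MiR-17* passed the threshold with RNU44 and RNU48 for normalisation (1.79, adjusted p = 0.0313) and without 2102Ep NC replicate 2 (1.62, 0.0238) or NTera-2 NC replicate 1 (0.0406), and miR-18a* without 2102Ep siSOX2 replicate 3 (-1.07, 0.0377). MiR-17* and miR-18a* come from the same transcript on chromosome 13, 142 bases apart. The largest single difference, that of miR-432* at -2.49 ± 1.67, came with overlapping groups and an adjusted p of 0.416.

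In NTera-2 cells 2 of the 57 members tested were called after SOX2 knock-down in the fit without pairing, and both fell. Neither was called with the samples paired. The 2 calls made up 3.51% of members, against 5.54% of the 451 assays tested and 3.77% that fell among them. MiR-222* had a ΔCt of 6.10, 6.17 and 5.90 in NC and 6.92, 7.18 and 7.25 in siSOX2. No siSOX2 sample reached the NC samples, and the fall was -1.06 ± 0.24, or 2.08-fold (adjusted p = 0.0266). The major strand miR-222, a known repressor of the cell cycle inhibitor p27, stood at 2.71, 2.34 and 2.61 in NC and 3.28, 3.00 and 3.31 in siSOX2 and differed by -0.64 ± 0.19 (adjusted p = 0.0882). MiR-1226*, for which no major strand assay was present, comes from DHX30 on chromosome 3. It stood at 5.50, 5.50 and 5.57 in NC and 7.27, 7.38 and 6.48 in siSOX2, a fall of -1.52 ± 0.30 or 2.88-fold (adjusted p = 0.0393), again without overlap.

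Neither call held with the replicate number as a block, which pairs the samples of this line (adjusted p = 0.0533 for miR-222* and 0.0868 for miR-1226*). The call of miR-222* was also lost without NC replicate 1 (0.0580) or 3 (0.120) or any siSOX2 sample (0.0539 to 0.0856), and that of miR-1226* without any NC sample (0.0880 to 0.142) or siSOX2 replicate 1 (0.140) or 2 (0.103). The reference mattered here, since all members lie on card B and another reference moves them by the same amount. Normalised to the global mean of the card, the members moved up by 0.51 on the log2 scale, 38 of 57 lay above 0 in place of 15, and none was called.

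The median change of the 57 members in NTera-2 cells was -0.33, beside -0.27 for all assays and -0.43 for the other assays of card B. The largest difference upward was that of miR-193b*, which was not called. Its ΔCt was 11.4, 9.96 and 12.2 in NC and 8.31, 8.21 and 9.54 in siSOX2, so that all siSOX2 samples were the higher in level. The difference was 2.48 ± 0.65, or 5.56-fold (adjusted p = 0.0953), and it passed the threshold without NC replicate 2 (3.08, adjusted p = 0.0433). Its major strand miR-193b rose by 1.02 ± 0.22 (adjusted p = 0.0249), from 7.63, 7.12 and 7.30 to 6.41, 6.24 and 6.34. MiR-27a* differed by 0.90 ± 0.37, while miR-374b* (-1.31 ± 0.38), miR-22* (-1.01 ± 0.37) and miR-625* (-0.93 ± 0.37) were lower, with adjusted p from 0.111 to 0.182. The hairpin of miR-374b* also lies in FTX. MiR-23b*, at -3.41 ± 1.44, had the largest difference of all members, with an adjusted p of 0.242.

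No minor-to-major shift was called in NTera-2 cells by limma. This was so for 0 of the 48 pairs of members and 0.0% of the 63 pairs tested, and 3 member pairs (6.25%) lay at an unadjusted p of 0.05 or less, against 6.35% of all pairs. These were miR-145* (-2.29 ± 0.57), miR-7-2* (2.31 ± 0.78) and miR-744* (-0.66 ± 0.28). In NC replicate 2 the distance of miR-7-2* from its major strand was 1.54 cycles, beside 4.96 and 4.72 in the other NC samples. With each sample left out in turn, member pairs were called only without this sample, and these were miR-145* and miR-7-2*. The share of all pairs called in that fit is not given here, so these calls cannot be set against it. MiR-744* had also shifted down against miR-744 in 2102Ep cells.

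**Figure D3:**
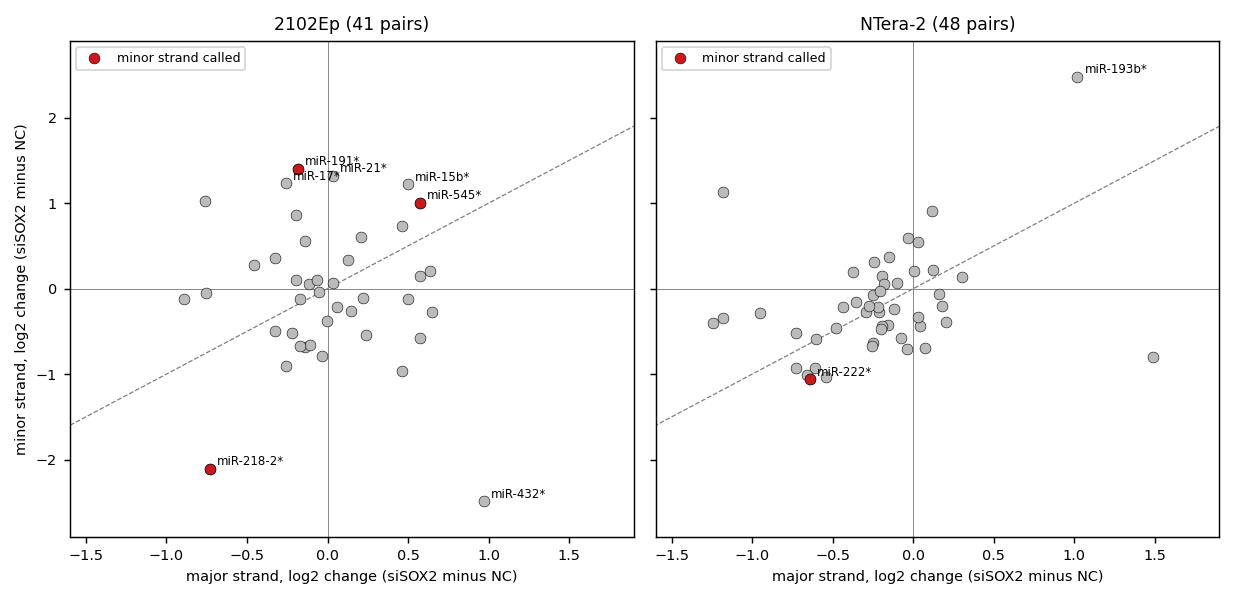
Log2 change after SOX2 knock-down (siSOX2 minus NC) of the minor strand against that of the major strand, for 41 pairs in 2102Ep and 48 in NTera-2 cells. Points are pairs, red points are minor strands at an adjusted p under 0.05, and the dashed line marks equal change. MiR-191* lies far above the line in 2102Ep cells, and miR-193b* lies above it in NTera-2 cells.

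Across pairs, the changes of the minor and the major strand were little correlated. In 2102Ep cells Pearson's r was -0.07 over 41 pairs, in NTera-2 cells it was 0.30 over 48 pairs, and 22 of 41 and 33 of 48 pairs had the same sign. These are descriptions, since all pairs share the same samples. The minor strand was called in only 3 and 1 of these pairs, so a low correlation does not show that the strands moved independently. The counts of equal sign also depend on the references of the cards. The major strand was called in 2 of the 41 pairs in 2102Ep cells, where miR-149 rose and miR-218 fell. In NTera-2 cells it was called in 4 of the 48 pairs through 3 major strands, since miR-145 (1.49) and miR-193b (1.02) rose and miR-7 (-1.18), which is paired with both of its minor strands, fell. The single pair with both strands called was that of miR-218 in 2102Ep cells.

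The response of 2 of 42 members differed between the lines when the difference itself was tested (4.42% of the 385 assays tested were called), and these were the neighbours miR-545* and miR-374a*. In NTera-2 cells the ΔCt of miR-545* was 8.32, 8.49 and 8.32 in NC and 8.89, 9.27 and 8.52 in siSOX2, a change of -0.52 ± 0.24 that was not called alone. The change in NTera-2 minus that in 2102Ep cells was -1.52 ± 0.34 (adjusted p = 0.0382). The ΔCt of miR-374a* in NTera-2 cells was 9.08, 9.05 and 9.04 in NC and 9.70, 9.52 and 10.3 in siSOX2, a change of -0.78 ± 0.39, and the difference between the lines was -2.53 ± 0.58 (adjusted p = 0.0405). By the deposited ΔCt the siSOX2 samples of both members lay above NC in level in 2102Ep and below NC in NTera-2 cells, without overlap. The major strands showed the same order, with differences of -1.30 ± 0.33 for miR-545 and -1.04 ± 0.27 for miR-374 (adjusted p = 0.0547 and 0.0550). Normalised to the global mean of the card, which moved the members of NTera-2 cells up by 0.51, neither difference between the lines was called. The size and direction of the NTera-2 changes thus depend on the reference. With the replicate number as a block the adjusted p were 0.0525 for miR-545* and 0.0694 for miR-374a*. Leaving out any 1 sample other than 2102Ep siSOX2 replicate 3, NTera-2 NC replicate 2 or NTera-2 siSOX2 replicate 3 ended the call of miR-545* (adjusted p from 0.0555 to 0.0998), and leaving out 2102Ep NC replicate 1 or 3 or any sample of NTera-2 cells ended that of miR-374a* (0.0566 to 0.109).

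Over the 42 members measured in both lines the changes were little correlated. Pearson's r between the lines was 0.05 across members, most of which were not called in either line, so it does not show different responses. Of these members 4 lay above 0 in both lines, 16 below 0 in both, 17 above 0 in 2102Ep cells only and 5 above 0 in NTera-2 cells only. These counts depend on the reference of card B. Normalised to the global mean of the card, 38 of the 57 members of NTera-2 cells lay above 0 in place of 15. By gene group, no minor strand of the DLK1-DIO3 cluster was called (5 tested in 2102Ep and 2 in NTera-2 cells), where 14.1% and 5.54% of all assays were called in these lines. The same held for the miR-17/miR-92 family, with 10 and 13 tested, of which 4 and 3 lay above 0, and for the precursors of miR-23, miR-27 and miR-24, with 2 and 4 tested. MiR-222*, the 1 member of miR-221 and miR-222, was tested in both lines and called in NTera-2 cells. None was called of miR-15 and miR-16 (2 and 3 tested), of miR-130, miR-301 and miR-454 (2 in each line), of miR-99, miR-100 and miR-125 (2 in each line), or of miR-34, miR-148 and the mesenchymal miR-145* (1 of each in each line). MiR-16-1* is itself part of the card B reference in NTera-2 cells, and miR-16 of that of card A, which lessens any change measured for them. The 2 members of miR-30 and miR-193b* were tested in NTera-2 cells only and not called.

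The undifferentiated lines differed far more than knock-down changed either of them. In the NC samples 32 of the 42 members measured in both lines differed, 22 being higher in NTera-2 and 10 higher in 2102Ep cells, where 71.8% of the 386 assays tested were called (38.9% higher and 32.9% lower in NTera-2). Levels are given here as log2 against the mean of the card in each sample. The 5 largest differences toward NTera-2 cells were those of miR-106b*, miR-17*, miR-15b*, miR-19b-1* and miR-18a*. MiR-106b* stood at -1.92, -2.56 and -2.06 in 2102Ep NC and at 4.21, 5.18 and 4.69 in NTera-2 NC. The groups lay far apart, and the difference was 6.88 ± 0.34, or 117-fold (adjusted p = 3.714e-05). MiR-17* stood at -8.68, -7.61 and -8.70 in 2102Ep and at -3.11, -1.96 and -1.96 in NTera-2 NC, a difference of 5.99 ± 0.47 (adjusted p = 0.000121). It was the weakest member in 2102Ep NC, at raw Ct of 32.9, 31.6 and 32.4, so its difference rests on late cycles there. For miR-15b*, miR-19b-1* and miR-18a* the differences were 5.84 ± 0.83, 4.11 ± 0.23 and 4.05 ± 0.34.

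Toward 2102Ep cells the largest were those of miR-432* (-4.43 ± 1.66, adjusted p = 0.0496, with overlapping groups and the call lost without any NC sample other than 2102Ep replicate 1, adjusted p from 0.0654 to 0.132), miR-376a* (-4.29 ± 0.45), miR-744* (-3.02 ± 0.32), miR-149* (-2.49 ± 0.45) and miR-100* (-2.47 ± 0.47). MiR-744* stood at -0.02, -0.11 and -0.03 in 2102Ep and at -3.42, -2.48 and -3.30 in NTera-2 NC, with no overlap. MiR-376a* was measured in only 2 samples of 2102Ep NC, at -0.72 and -0.76, beside -4.90, -5.75 and -4.44 in NTera-2 NC. MiR-376a* and miR-432* come from DLK1-DIO3, the imprinted miRNA cluster of chromosome 14, and the other 3 members of that cluster, miR-136*, miR-154* and miR-411*, had values only in 2102Ep cells. All 5 minor strands of the cluster were thus higher in 2102Ep cells or measured in these cells only.

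**Figure D4:**
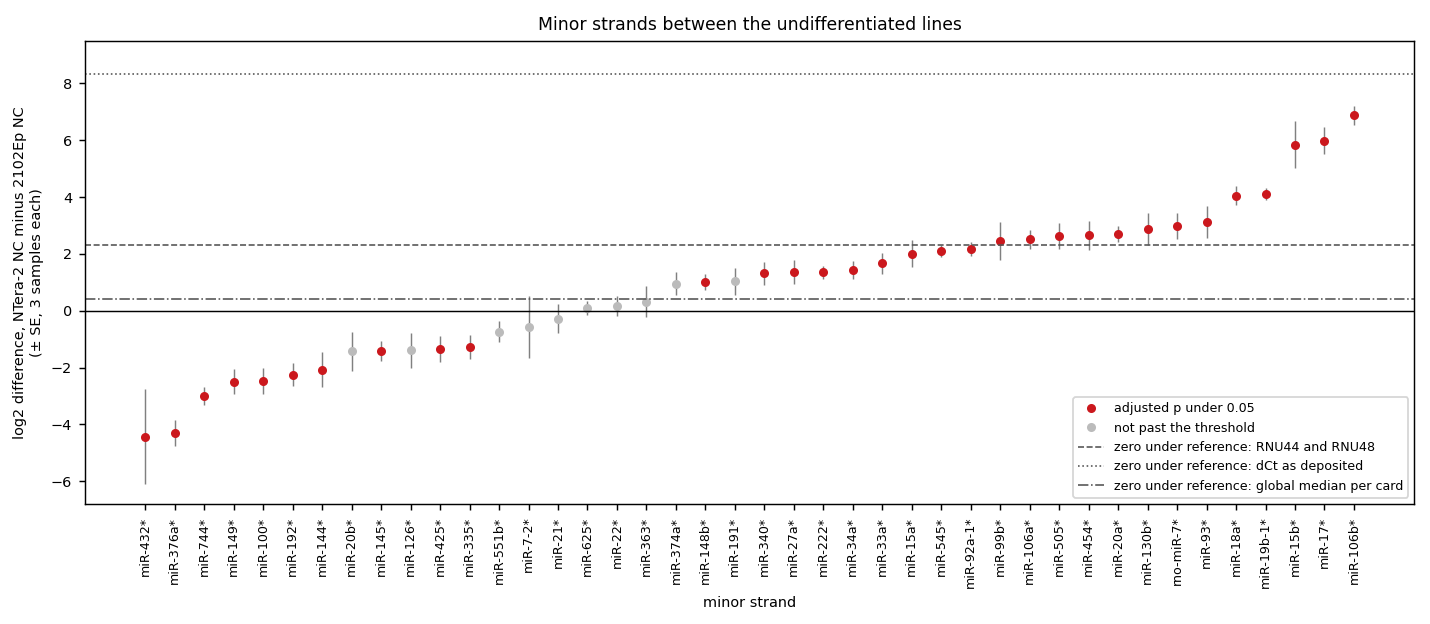
Log2 difference between NTera-2 NC and 2102Ep NC of the 42 members measured in both lines, with SE (3 samples each, 2 for miR-376a* in 2102Ep), normalised to the mean of each card. Red points have an adjusted p under 0.05, and the broken lines show where 0 would lie under 3 other references. The order of the members is the same under every reference, but the number above 0 is not.

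How many members were higher in which line depended on the reference. Because all members lie on the same card, the order of their differences did not depend on it. Against RNU44 and RNU48 the members moved by -2.31, and 5 were called higher and 21 lower in NTera-2 cells. With the ΔCt as deposited, for which the reference of card B differed between the lines, the shift was -8.33 and all 42 were called lower. Under the card mean, the card median and RNU44 with RNU48 alike, miR-106b*, miR-15b*, miR-17*, miR-18a* and miR-19b-1* were called higher in NTera-2 cells, though not under the deposited ΔCt. The other references all moved the members toward 2102Ep cells, so that they bear on the calls toward NTera-2 cells only, and the 10 members called lower in NTera-2 cells, which could not lose their direction, remained called. They were miR-100*, miR-144*, miR-145*, miR-149*, miR-192*, miR-335*, miR-376a*, miR-425*, miR-432* and miR-744*.

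The miR-17/miR-92 family showed how the strands of related precursors can part. Its 13 members come from 3 transcripts, with 6 on chromosome 13 (MIR17HG), 3 on chromosome 7 within MCM7, and 4 on the X chromosome (miR-106a*, miR-20b*, miR-363* and miR-92a-2*). The major strands miR-92a and miR-19b can come from both chromosome 13 and the X chromosome, and how far the assays tell the near-identical major strands of this family apart was not tested. Every major strand of the 3 clusters was higher in NTera-2 NC, by 1.72 to 4.54 on the log2 scale, and lay above 0 against RNU44 and RNU48 too (0.19 to 3.01), whereas 10 of 12 lay below 0 with the deposited ΔCt. On chromosome 13 all 5 minor strands tested were called higher too, by 2.18 to 5.99, and on chromosome 7 both were, by 3.12 and 6.88. Against RNU44 and RNU48, 3 of these 5 and 1 of these 2 were still called higher and miR-92a-1* stood at -0.13, while with the deposited ΔCt all 7 lay below 0. On the X chromosome only miR-106a* was called higher (2.51 ± 0.32), while miR-20b* (-1.42 ± 0.69, adjusted p = 0.104) and miR-363* (0.32 ± 0.55, adjusted p = 0.616) did not pass the test. Against RNU44 and RNU48 the last 2 were called lower, at -3.73 and -1.99, and miR-106a*, at 0.20, was not called. MiR-363* stood at -1.85, -3.31 and -1.18 in 2102Ep and at -1.74, -2.04 and -1.59 in NTera-2 NC, fully overlapping. Its major strand stood at -0.67, -1.48 and -1.38 and at 3.43, 3.56 and 3.11, a difference of 4.54 ± 0.31.

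Set against the major strand within each sample, the called pairs of the X chromosome and of the other clusters differed in direction. The level of miR-106b* over miR-106b was higher in NTera-2 cells by 4.20 ± 0.38 (adjusted p = 0.000275), that of miR-17* over miR-17 by 3.65 ± 0.48 (0.00167) and that of miR-19b-1* over miR-19b by 1.67 ± 0.29 (0.00469). MiR-17* was the weakest member in 2102Ep NC, at raw Ct of 31.6 to 32.9. The call of miR-19b-1* was lost with the card median (0.76, adjusted p = 0.0709) and against RNU44 and RNU48 (0.89, 0.127), and with the deposited ΔCt its difference was -3.01. The other pairs of these clusters were not called and went both ways, with 0.52 for miR-18a*, -0.15 for miR-20a*, -0.75 for miR-92a-1* and 0.88 for miR-93* (adjusted p from 0.0709 to 0.731), so that 2 of 5 pairs of chromosome 13 and 1 of 2 of chromosome 7 were called. On the X chromosome all 3 pairs measured went the other way. The differences were -4.22 ± 0.57 for miR-363* (adjusted p = 0.00167), -3.70 ± 0.70 for miR-20b* (0.00477) and -1.42 ± 0.41 for miR-106a* (0.0206). MiR-17*, miR-106b* and miR-20b*, whose sequences are shown above, thus parted although their major strands share a seed and were all higher in NTera-2 cells, other than with the deposited ΔCt. The other references moved pairs across cards by -0.78 (RNU44 and RNU48), -0.90 (card median) and -4.68 (deposited ΔCt), and so could not end the direction of the 3 differences of the X chromosome. Those of miR-106b* and miR-17* were still called higher with the card median and against RNU44 and RNU48, but were -0.48 and -1.02 with the deposited ΔCt.

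**Figure D5:**
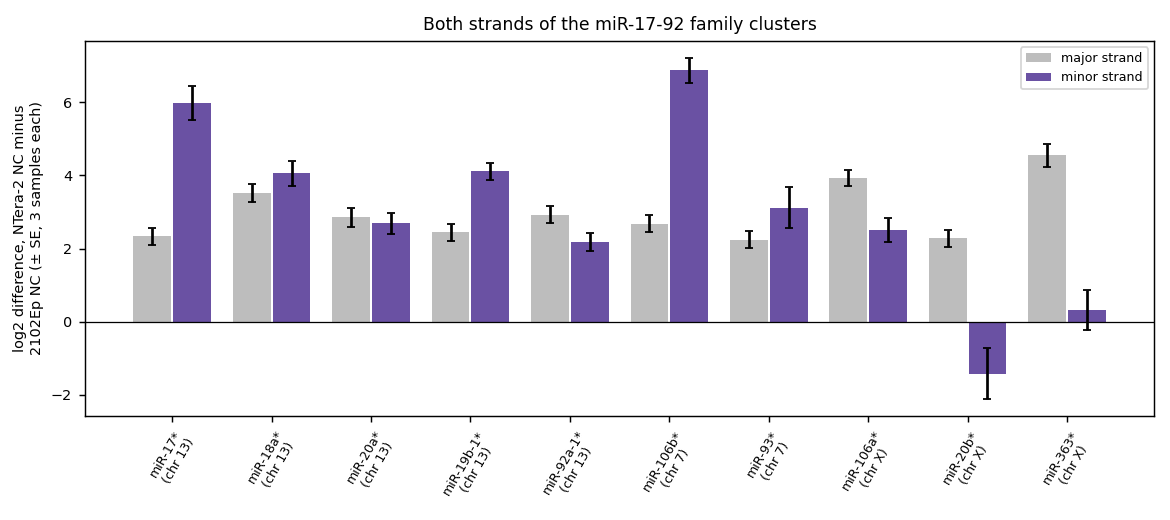
Log2 difference between NTera-2 NC and 2102Ep NC (± SE, 3 samples each) of the major (grey) and minor (purple) strands of the miR-17/miR-92 family measured in both lines, with their chromosome, normalised to the mean of each card. All major strands lie above 0 (with the deposited ΔCt 10 of 12 lie below), the minor bars of miR-17* and miR-106b* exceed the major bars, and those of miR-20b* and miR-363* do not.

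Over all 37 pairs of members tested, the minor-to-major level differed between the lines in 23 (62.2%), in either direction, beside 64.0% of all 50 pairs. The largest toward 2102Ep cells was that of miR-149* over miR-149, whose minor strand was the strongest member in 2102Ep cells. MiR-149* stood at 5.80, 5.14 and 4.34 in 2102Ep and 3.00, 2.11 and 2.69 in NTera-2 NC, while miR-149 stood at 1.09, 1.29 and 1.33 and at 3.45, 3.25 and 3.22. The minor-to-major difference was thus -4.56 ± 0.49 (adjusted p = 0.000631), although the difference of miR-149 alone turned from 2.07 to -1.58 with the deposited ΔCt. MiR-744* (-3.93 ± 0.35) and miR-126* (-3.89 ± 0.71), the minor strand of an endothelial miRNA, followed miR-363* in the same direction. Toward NTera-2 cells, miR-15b* (3.38 ± 0.88), miR-34a* (2.87 ± 0.44), from a precursor that p53 is known to induce, and miR-148b* (1.76 ± 0.35) stood next to miR-106b* and miR-17*. The call of miR-15b* was lost without NTera-2 NC replicate 2 (adjusted p = 0.0581), and that of miR-148b* with the card median (0.0828) or RNU44 and RNU48 (0.126). MiR-34a* was higher and miR-34a lower in NTera-2 cells, by 1.44 ± 0.31 and -1.44 ± 0.29, though miR-34a* stood at -0.87 against RNU44 and RNU48.

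Of the 37 pairs, 24 had the same sign of the line difference in both strands, with a Pearson's r of 0.53 across pairs. Normalised to the card mean, the minor strand was called in 28 and the major strand in 27 of the 37 pairs. Both were called in 20 pairs, 17 of them in the same direction. With calls this common, many pairs have both strands called in any case, so this count does not show that the strands went together. Against RNU44 and RNU48 18 member pairs were called, and with the deposited ΔCt 32. The pairs called toward 2102Ep cells could not lose their direction under these references, and that of rno-miR-7*, which was higher in NTera-2 cells, has both strands on card B, so that the reference cancels.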

How the data were processed

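MiRNA levels were measured in 12 samples on TaqMan array cards. In the deposited tables the raw Ct values and the ΔCt values, both on a log2 scale, were exported by the authors from DataAssist 3.0, the ΔCt being the Ct minus a constant per sample and card. A further table of the authors' fold changes and p-values was not used. In 11 raw columns the constant held within 0.02 cycles. In that of 2102Ep siSOX2 replicate 3 the values from row 106 on were displaced, 99.7% of 339 were found after moving them by 1 measured row, and raw Ct was taken as ΔCt plus the constant. The reference of card A was the mean of miR-16 and U6 and that of card B in NTera-2 cells the mean of miR-16-1* (a member), RNU48 and U6; for card B of 2102Ep cells it is not given in the sources used here.

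Two-sided tests of minus ΔCt used limma 3.58.1 (R 4.3.3) with a mean for each of the 4 groups, lmFit across the 12 samples together and eBayes, for assays with values in at least 2 of 3 samples of each group, with Benjamini-Hochberg adjustment over all assays tested. The undifferentiated lines were compared on raw Ct centred on the mean of each card. The same fits were run on the minor minus the major level over all pairs of the table, strands being paired by name. Scripts were tested on simulated data. Ct from pre-amplified PCR gives no molecule counts, so precision rests on 3 samples per group, and 0 pairs of samples had identical values. Members, lists and the rule for named members (members called; the 5 largest each way between the lines; the 5 largest non-overlapping changes each way at an unadjusted p of 0.05 or less; the 3 strongest and weakest; the 3 widest and narrowest strand distances; and members in the study's tables) were chosen with earlier results of these data known. Samples that share a replicate number in the labels correlated in their deviations from the group means in NTera-2 cells (0.118, 0.265 and 0.160) and were taken as paired. Alternatives were other references, a Ct limit of 32, unmeasured values at Ct 40, an unequal-variance test, the 6 samples alone, a replicate block and each sample left out.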

Additional observations from a re-analysis of the deposited data

Results flagged for a closer look

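The change after SOX2 knock-down differed between the lines for 2 members in the test of the difference itself, by -2.53 on the log2 scale for miR-374a* and by -1.52 for miR-545* (NTera-2 minus 2102Ep). Both rose in 2102Ep cells, and their changes in NTera-2 cells were -0.78 and -0.52. Neither difference was called with the global mean of the card. MiR-374a* had no value in 2102Ep siSOX2 replicate 3. The lines also differed in siRNA dose, lipid reagent and reported SOX2 mRNA left after knock-down, whose part in the result was not tested. Groups of 3 samples are too small for a check of single outlying samples.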

How the results depend on the processing

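Few of the knock-down calls of members withstood other processing. In 2102Ep cells the count of 4 members became 6 with RNU44 and RNU48, 3 with a replicate block, 2 with the 6 samples alone and 0 with the unequal-variance test, and lay between 0 and 5 with 1 sample left out (0 without NC replicate 1 or siSOX2 replicate 1 of that line). The 2 calls of NTera-2 cells became 1 with unmeasured values at Ct 40 and 0 with the global mean, RNU44 and RNU48, the unequal-variance test, the 6 samples alone or the replicate block, and 0 to 3 with 1 sample left out (0 without NC replicate 3 or siSOX2 replicate 1 or 2). The 2 members that differed in response between the lines became 1 with Ct 40, 0 with the global mean, the unequal-variance test or the replicate block, and 0 to 2 with 1 sample left out. The 2 minor-to-major shifts in 2102Ep cells became 1 with RNU44 and RNU48, 0 with the unequal-variance test, the 6 samples alone or the replicate block, and 0 to 3 with 1 sample left out. In NTera-2 cells the number of shifts was 0 throughout except for 2 without NC replicate 2. In 2102Ep cells numbered samples correlated by 0.158, 0.169 and 0.064, each above the values for samples of unlike number (-0.216 to 0.036). They were not taken as paired because the last was low, but no test set that limit, so pairing in 2102Ep cells remains possible. There the replicate block ended the call of miR-374a* (adjusted p = 0.0591) and the shifts of miR-191* (0.0528) and miR-744* (0.0759). The block changed no other count of members by over 1.5 times.

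Between the undifferentiated lines 22 to 42 members and 14 (unequal-variance test) to 32 minor-to-major pairs were called under the alternatives. With the deposited ΔCt the differences of miR-106b*, miR-15b*, miR-17*, miR-18a* and miR-19b-1* turned to -1.45, -2.49, -2.34, -4.27 and -4.22, and the minor-to-major differences of miR-106b*, miR-148b*, miR-15b*, miR-17* and miR-34a* to -0.48, -2.91, -1.30, -1.02 and -1.80; the constants of card B lay about 8 cycles apart between the lines there. Setting an unmeasured sample to Ct 40 turned the change of miR-374a* in 2102Ep cells to -3.46, its difference between the lines' responses to 2.68 and the line difference of miR-376a* to 0.73, each through that 1 sample. A mean raw Ct of 32 or less changed no count of members. Weak assays limit what can be seen: where a member had no value in a line, no level or fold can be given.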
